A study of Mus musculus with 6 samples.

Results

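Cells make retinoic acid from vitamin A and remove it again through a short chain of enzymes and binding proteins, and 9 genes of that chain were followed across 6 sorted stromal populations of the mouse omentum. The genes were taken by name for their roles, with no threshold on a measured value. They were the retinaldehyde dehydrogenases *Aldh1a1*, *Aldh1a2* and *Aldh1a3*, the retinol dehydrogenase *Rdh10*, the retinaldehyde reductase *Dhrs3*, the binding proteins *Crabp1* and *Crabp2*, the hydroxylase *Cyp26b1* and the receptor *Rarb*. All 9 were found among the 23352 gene symbols of the deposited tables, each listed in every population.

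The omentum is a fatty fold of the abdominal lining that carries lymphoid clusters called milky spots, and the study asked which of its stromal cells can produce retinoic acid. Cells were separated by surface markers and by aldehyde dehydrogenase (ALDH) activity, read with a fluorescent substrate, and 1 RNA-seq library was made from each population. All populations came from WT C57BL/6 mice; their age and sex and the number of mice pooled in a library were not given in the sources used here. P1 was CD45-CD140a+CD105+ with high ALDH activity, and P2 (intermediate activity) and P3 (low activity) carried the same surface markers. P4 (intermediate) and P5 (low) lacked CD105 but were otherwise CD45-CD140a+, and P6 was the ALDH-positive fraction of CD45-CD140a low cells. Values were FPKM, fragment counts corrected for transcript length and for the size of the library, so they allow levels of different genes to be set side by side per length. Depth, estimated from the spacing of low values, lay between 53.3 M reads (P1) and 61.7 M reads (P5) in all libraries except P6, which had 36.9 M. With 1 library for each population there was no replicate error and no test was run. The 95% intervals given below were computed from estimated reads and cover counting error only.

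Retinol enters cells, is oxidized reversibly to retinaldehyde by retinol dehydrogenases such as RDH10, and is oxidized irreversibly to retinoic acid by the ALDH1A enzymes. DHRS3 turns retinaldehyde back into retinol, CRABP proteins bind retinoic acid in the cytoplasm, and CYP26 enzymes hydroxylate it for disposal. Retinoic acid acts through nuclear receptors of the RAR family paired with RXR, and *Rarb*, *Cyp26b1* and *Dhrs3* are themselves known to respond to it.

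The genes behind the sort gates followed the labels. *Eng*, which encodes CD105, was at 52.4, 52.2 and 42.6 FPKM in P1, P2 and P3, and at or below 0.728 elsewhere. *Pdgfra*, which encodes CD140a, lay between 117 and 154 FPKM in P1 to P5 and at 5.36 in P6, and *Ptprc*, which encodes CD45, did not exceed 0.755. The 8 fibroblast markers summed to 13921, 10997 and 10937 FPKM in P1, P2 and P3, 10891 and 9039 in P4 and P5, and 10309.9 in P6, with *Dcn* the most abundant in every library. The markers did not agree for P6, where *Lum* was at 6.19 FPKM against 56.4 or more elsewhere and *Dpt* at 8.70 against 264 or more. *Pdgfra*, *Lum* and *Dpt* were past 2 times lower there than in each other population, 3 of 8 against 3.36% of all genes. That count includes *Pdgfra*, whose low level in P6 followed from the CD140a low gate, so only *Lum* and *Dpt* add to the gate. *Col1a1*, at 1735 FPKM, and *Pdpn*, at 125, were instead highest in P6, but 0 of 8 were past 2 times higher there, against 6.25%. *Col3a1* was listed at 0 in P2 and at 2100.2 FPKM or more in the other 5 libraries, so the fibroblast sum of P2 lacks this gene. Even so that sum was above those of P3 to P6, and its place beside the sum of P1 is unknown. A listed 0 in these tables can be a failed estimate and is reported below only as listed at 0.

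*Aldh1a2* encodes the ALDH1A enzyme after which the study's cells were named. Its level was 469, 78.8 and 134 FPKM in P1, P2 and P3, 285 and 145 in P4 and P5, and 209 in P6. P1 was highest and P2 lowest, a ratio of 5.96 (95% counting interval 5.83 to 6.09), and the order P1, P4, P6, P5, P3, P2 had no neighbours within counting error of each other. The smallest step in that order was P5 over P3, at 1.09 times (1.06 to 1.11). Division by *Gapdh* exchanged P5 and P3 and left the other places as they were. The gene lies on chr9:71215789-71296243, plus strand (GENCODE M21 on GRCm38). In bulk libraries such as these, fewer expressing cells and less RNA per cell cannot be told apart.

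*Aldh1a1*, which encodes another retinaldehyde dehydrogenase, was at 41.4, 63.4 and 64.7 FPKM in P1, P2 and P3, 78.3 and 90.7 in P4 and P5, and 129 in P6. The gene lies on chr19:20492715-20643465, plus strand. Its levels were lowest where *Aldh1a2* was highest. P2 and P3 were the only neighbours in the order that did not differ beyond counting error, with P3 over P2 at 1.02 (0.988 to 1.05), and P6 exceeded P5 by 1.42 times (1.38 to 1.46). P6 was highest and P1 lowest under every scaling tried, whereas P2 and P3 exchanged places with the median of ratios and the order became P6, P2, P3, P5, P4, P1 under division by *Gapdh*. *Aldh1a7*, a close relative of *Aldh1a1* that was singled out after its values were seen, was at 0.709, 0.962 and 1.15 FPKM in P1, P2 and P3, 2.48 and 2.84 in P4 and P5, and 5.97 in P6. How the authors' counting divided reads between these similar sequences was not given in the sources used here.

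*Aldh1a3* (chr7:66390890-66427517, minus strand) varied most of the family. It was at 19.5, 38.2 and 23.3 FPKM in P1, P2 and P3, 8.99 and 6.73 in P4 and P5, and 0.642 in P6. P2 was 59.5 times P6, where the value rested on an estimated 21 reads. The order P2, P3, P1, P4, P5, P6 was the same under all 4 alternative scalings, and each neighbouring pair differed beyond counting error.

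Summed over the 3 genes, retinaldehyde dehydrogenase transcripts came to 530.2, 180.4 and 222 FPKM in P1, P2 and P3, 372 and 243 in P4 and P5, and 338 in P6. *Aldh1a2* supplied 88.5%, 43.7% and 60.3% of the sum in P1, P2 and P3, 76.5% and 59.8% in P4 and P5, and 61.7% in P6. The sum did not follow the ALDH gates in a fixed order, since P2 (intermediate activity) lay below P3 (low activity) and P4 (intermediate) lay above P5 (low). The share of *Aldh1a3* was largest in P2, at 21.2%, with 10.5% in P3, 3.68% in P1 and 0.190% in P6. That of *Aldh1a1* was 35.2% in P2, near the 37.4% of P5 and the 38.1% of P6.

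**Figure D1:**
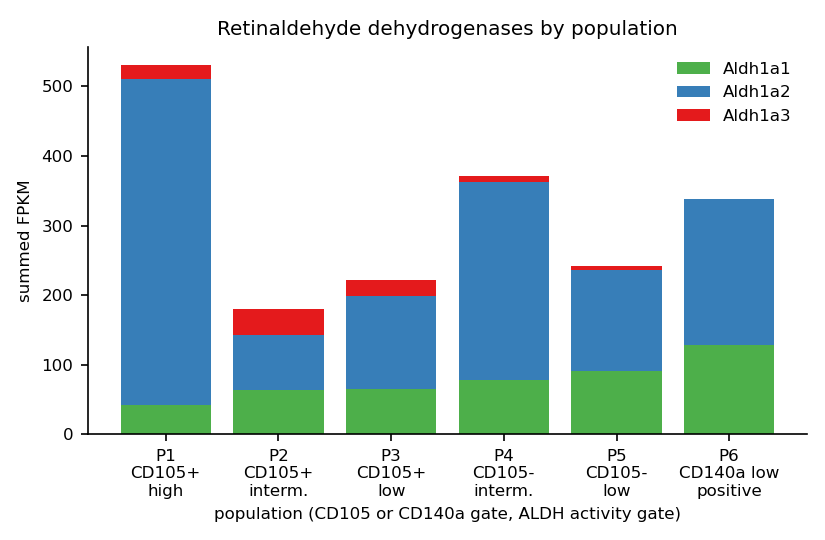
Stacked bars of FPKM for *Aldh1a1*, *Aldh1a2* and *Aldh1a3* in each population (x axis, with its CD105 or CD140a gate and its ALDH activity gate), 1 library each. The stack is tallest in P1 (530.2 FPKM) and shortest in P2 (180.4 FPKM), and *Aldh1a2* is the largest share in every population.

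*Rdh10*, which encodes the dehydrogenase that supplies retinaldehyde, was at 33.9, 31.2 and 64.2 FPKM in P1, P2 and P3, 112 and 149 in P4 and P5, and 40.8 in P6. Annotated at chr1:16105774-16133734, plus strand, it was high in the CD105- populations and, within each CD105 class, higher at low than at intermediate ALDH activity. *Dhrs3*, whose product works in the opposite direction, was at 48.5, 51.2 and 44.2 FPKM in P1, P2 and P3, 27.3 and 22.9 in P4 and P5, and 30.9 in P6. *Dhrs3* lies on chr4:144892827-144928209, plus strand. The ratio of *Rdh10* to *Dhrs3* was below 1 in P1 (0.699) and P2 (0.610), and above 1 in P3 (1.45), P4 (4.11), P5 (6.51) and P6 (1.32). All neighbours in the order of *Rdh10* differed beyond counting error, the closest being P1 over P2 at 1.09 (1.05 to 1.13). For *Dhrs3* the closest was P2 over P1 at 1.06 (1.002 to 1.11), and these exchanged places with the median of ratios.

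The CRABP genes (*Crabp1* on chr9:54764748-54773110 and *Crabp2* on chr3:87948666-87953376, both plus strand) were close to the limit of detection. *Crabp1* was at 0.173, 0.931 and 1.22 FPKM in P1, P2 and P3 and was listed at 0 in P4, P5 and P6. These values stood for an estimated 6 reads in P1, 35 in P2 and 45 in P3, and P3 over P2 was 1.31 (0.822 to 2.09). Its values above 0 were thus all in CD105+ populations, and no fold is given against a listed 0. *Crabp2* ran from 0.0244 FPKM in P4 to 0.209 in P2, an estimated 1 to 9 reads, and no neighbouring pair differed beyond counting error. The ends of that order did differ, with P2 over P4 at 8.54 (1.18 to 375), but the value in P4 rested on an estimated 1 read. The plot of the members' levels shows these wide intervals beside the narrow ones of the enzymes.

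**Figure D2:**
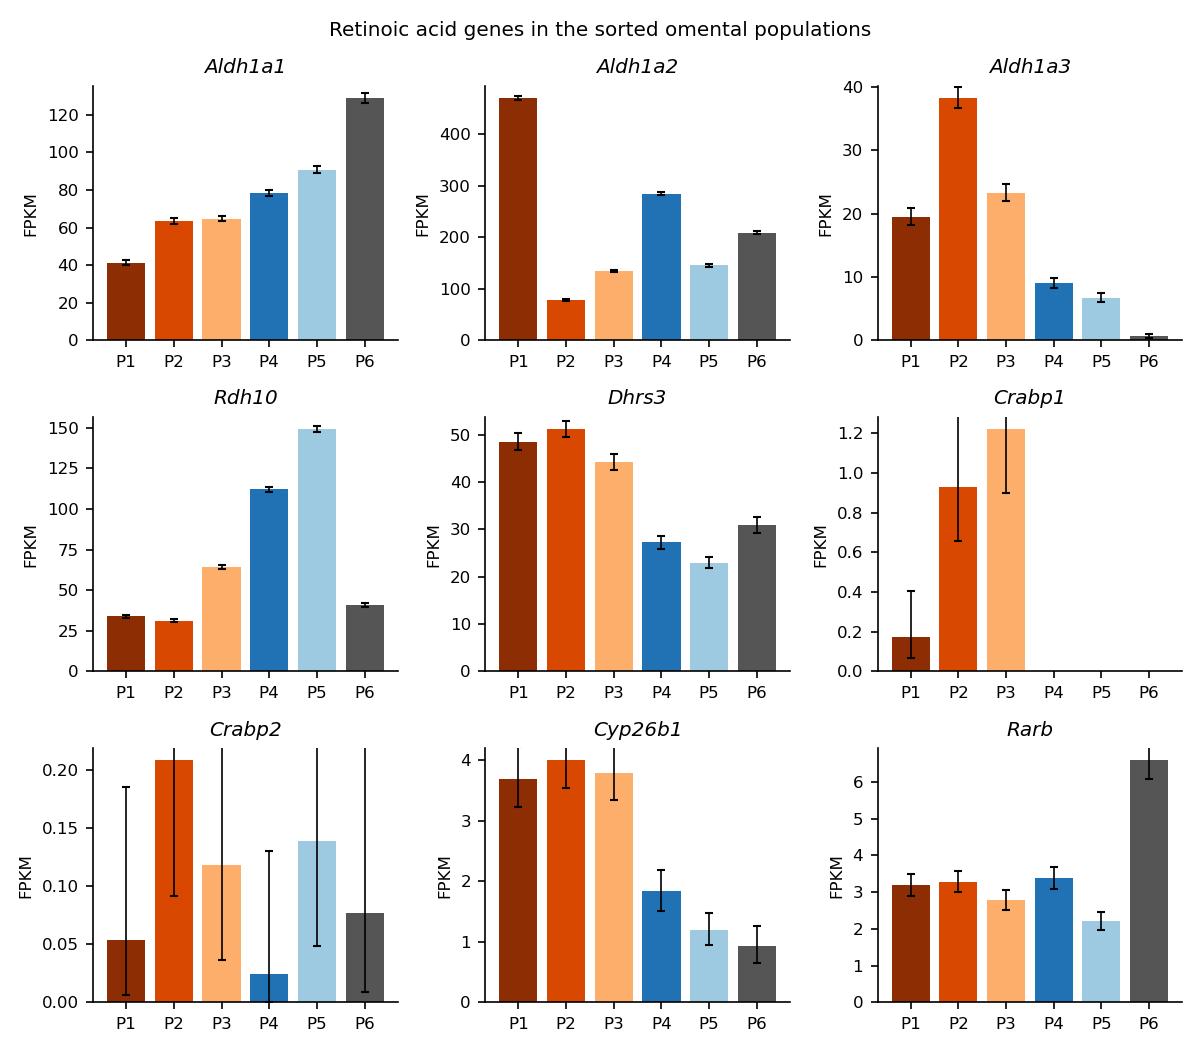
FPKM (y axis, a scale of its own in each panel) of the 9 genes in P1 to P6 (x axis), 1 library each. Error bars are 95% Poisson intervals from estimated reads, which cover counting error only, and populations listed at 0 (*Crabp1* in P4, P5 and P6) have no bar.

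*Cyp26b1*, which encodes the retinoic acid hydroxylase with the highest listed value in each library, was at 3.69, 4.01 and 3.80 FPKM in P1, P2 and P3, 1.83 and 1.19 in P4 and P5, and 0.925 in P6. P1, P2 and P3 did not differ from one neighbour to the next beyond counting error, and neither did P5 and P6, at 1.29 (0.871 to 1.93). The gene lies on chr6:84571414-84593908, minus strand. The step between the groups, P1 over P4, was 2.01 times (1.62 to 2.54).

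*Rarb*, the retinoic acid receptor gene of the set, was at 3.18, 3.29 and 2.78 FPKM in P1, P2 and P3, 3.39 and 2.21 in P4 and P5, and 6.60 in P6. P6 was 1.95 times P4, the next highest (1.73 to 2.20), and P4, P2, P1 and P3 formed a run in which no neighbours differed beyond counting error. Within that run P2 and P3, which were not neighbours, did differ, at 1.18 (1.04 to 1.35). *Rarb* had the lowest spread of the members after *Dhrs3*, with its highest population at 2.99 times its lowest. Its annotated exons share 34.1% of their bases with exons of *Top2b* on the opposite strand, and the sources used here name the NEBNext Ultra RNA kit but state no strand setting for the counting. *Top2b*, singled out after its values were seen, was at 25.7, 28.8 and 30.4 FPKM in P1, P2 and P3, 28.3 and 29.7 in P4 and P5, and 29.2 in P6. Reads from the shared stretch could not be assigned to either gene here, so the level of *Rarb* is uncertain.

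A well known retinoic acid response element lies at a start site of *Rarb*, so that promoter is shown. Promoter windows of 300 bases, 250 before and 50 after the annotated start (RefSeq, GRCm38.p6), were matched for 6 of the 9 genes, *Aldh1a1*, *Aldh1a2*, *Dhrs3*, *Crabp1*, *Cyp26b1* and *Rarb*, with 9 windows in all. Both strands were searched for a pair of half-sites, each AGGTCA or AGTTCA or GGTTCA or GGGTCA, in the same orientation and 5, 2 or 1 bases apart. Only *Rarb* held a match, with a spacing of 5 bases, at positions -53 to -37 relative to the start. In the window below, chr14:16575427-16575726 on the minus strand, capitals mark both half-sites and the bases between them.
Rarb promoter: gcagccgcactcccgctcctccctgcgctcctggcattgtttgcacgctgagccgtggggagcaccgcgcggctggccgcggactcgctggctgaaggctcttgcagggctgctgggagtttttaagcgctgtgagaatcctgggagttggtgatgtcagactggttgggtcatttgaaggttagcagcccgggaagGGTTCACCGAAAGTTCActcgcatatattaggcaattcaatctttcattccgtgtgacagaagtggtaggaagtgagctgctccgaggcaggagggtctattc
A match at a spacing of 5 was held by 32 of 32851 promoter windows (0.0974%), at 2 by 88 (0.268%) and at 1 by 73 (0.222%). The window lies inside the annotated span of the gene, chr14:16430839-16819156, at an internal start. A match describes letters in this window and was not a measurement of receptor binding, and the FPKM values sum all starts of the gene.

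Across the 9 genes, the highest value of *Aldh1a3*, *Dhrs3*, *Crabp2* and *Cyp26b1* was in P2, that of *Aldh1a1* and *Rarb* in P6, that of *Aldh1a2* in P1, that of *Crabp1* in P3 and that of *Rdh10* in P5, although *Dhrs3* moved to P1 with the median of ratios and *Cyp26b1* with quantile normalization. Among the 6 members that reached 5 FPKM somewhere, P1 was highest for 1, P2 for 2, P5 for 1 and P6 for 2, and of all 9790 such genes P1 was highest for 15.6%, P2 for 8.29%, P5 for 26.3% and P6 for 35.5%. Several members divided by CD105, a grouping chosen after the values were seen. Of 8 members with at least 1 FPKM in P1 to P5, 4 were higher in each of P1, P2 and P3 than in P4 and P5, namely *Aldh1a3*, *Dhrs3*, *Crabp1* and *Cyp26b1*, which was the case for 18.0% of all genes. *Crabp1* entered through P3 alone and stood against listed zeros, and a recount without genes listed at 0, chosen after the values were seen, gave 3 of 7 against 18.1%. *Aldh1a1* and *Rdh10* were lower in each of P1, P2 and P3, 2 of the 8, and 37.9% of all genes were. These placements held under 3 of the 4 alternative scalings, and under division by *Gapdh* *Aldh1a1* overlapped and *Rarb* joined those higher in the CD105+ populations. *Aldh1a2* overlapped under each of them.

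Pairs of populations were next set side by side at a fold of 2, on the scale log2(FPKM + 0.1), which understates ratios of low genes. A gene entered a comparison when it reached 1 FPKM in at least one of the populations, or for P6 in any of the 6. A gene below 1 FPKM on the lower side therefore entered only through the population where it was high. For P6, a gene was counted higher only if P6 itself reached 1 FPKM, and lower only if each other population did. *Crabp1*, listed at 0 in P4 and P5, was tested there but could not be counted lower. The comparisons share libraries and are not independent of each other.

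P1 against P2 contrasts high with intermediate ALDH activity within CD105+ cells. *Aldh1a2* was higher in P1 by 2.57 on the log2 scale and was the sole member past 2 times upward, 1 of 7, against 0.957% of all genes. None of the 7 was past 2 times downward, against 4.23% of all genes, although *Aldh1a3* came near at -0.97, with 19.5 FPKM in P1 and 38.2 in P2. *Crabp1* was not among the 7, since its 0.931 FPKM in P2 fell below the minimum of 1, but it was lower in P1, at 0.186 times P2 (0.0681 to 0.476), and was counted downward under division by *Gapdh* and with no minimum. *Aldh1a1* differed by -0.61. The 4 remaining members, *Rdh10*, *Dhrs3*, *Cyp26b1* and *Rarb*, lay between -0.11 and 0.12, and the signs of *Dhrs3*, *Cyp26b1* and *Rarb* turned under at least 1 other scaling. The members' median was -0.11, and that of all genes tested was -0.05.

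P2 against P3 contrasts intermediate with low ALDH activity in CD105+ cells. Of 8 members, *Rdh10* alone passed 2 times, with -1.04, so 1 was lower in P2, against 2.56% of all genes, and 0 were higher, against 1.09%. That call lay on the threshold: the interval for the ratio of P2 to P3, 0.472 to 0.5005, included 0.5, and the call was lost with the median of ratios (-0.99) and, by less than 0.01, with division by *Gapdh*. *Aldh1a2* was at -0.76 and *Aldh1a3* at 0.71, so these enzymes of the same family had opposite signs across this step. *Crabp1* was at -0.36 and *Dhrs3* at 0.21.

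P4 against P5 is the same activity step in CD105- cells. No member of 7 passed 2 times in either direction, where 3.93% of all genes were higher in P4 and 1.44% lower. *Aldh1a2* came closest, with 285 against 145 FPKM, a log2 difference of 0.97 and a ratio of 1.96 (1.93 to 1.996). It passed 2 times with the median of ratios and with division by *Gapdh*. *Rarb* was at 0.60, *Cyp26b1* at 0.58 and *Rdh10* at -0.41. *Rdh10* was therefore lower at intermediate than at low activity in both CD105 classes.

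P2 against P4 contrasts CD105+ with CD105- cells at intermediate activity. Of 7 members, 2 were higher in P2, *Aldh1a3* at 2.07 and *Cyp26b1* at 1.09, against 4.90% of all genes. *Aldh1a2* at -1.85 and *Rdh10* at -1.84 were lower in P2, 2 of 7, against 7.63%. *Dhrs3* was at 0.91, short of 2 times, and passed under division by *Gapdh* and quantile normalization. The interval for the ratio of *Cyp26b1*, 1.76 to 2.73, included 2, and its call was lost at a pseudocount of 1.

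P3 against P5 is the CD105 contrast at low activity. Of 8 members, 3 were higher in P3, *Aldh1a3* at 1.77, *Cyp26b1* at 1.60 and *Crabp1*, which was listed at 0 in P5, against 7.33% of all genes. Without genes listed at 0 it was 2 of 7, against 7.14%, since *Crabp1* was tested only for its level in P3. *Rdh10* was lower at -1.21, 1 of 8, against 6.29%, and lost that call under division by *Gapdh* (-0.67). *Dhrs3* was short of 2 times at 0.95 and passed with the median of ratios, quantile normalization and division by *Gapdh*. *Aldh1a2*, by contrast with the step at intermediate activity, was at -0.12, with 134 FPKM in P3 and 145 in P5, and its sign turned under division by *Gapdh*.

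P1 against P4 sets the populations with the most *Aldh1a2* in each CD105 class beside each other. Of 7 members, *Aldh1a3* was higher in P1 at 1.11, 1 of 7 against 4.13% of all genes, and *Rdh10* was lower at -1.72, 1 of 7 against 10.1%. The interval for the ratio of *Aldh1a3*, 1.94 to 2.43, included 2. *Aldh1a2* itself was at 0.72, *Dhrs3* at 0.83 and *Aldh1a1* at -0.92, all short of 2 times, although *Aldh1a2* and *Dhrs3* passed under division by *Gapdh*. *Cyp26b1* lay on the threshold: its ratio was 2.01 but 0.97 on the scale with the pseudocount, and it passed at a pseudocount of 0.01, with the median of ratios, with quantile normalization and under division by *Gapdh*. The plot of ratios shows how many members lay near the line.

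**Figure D3:**
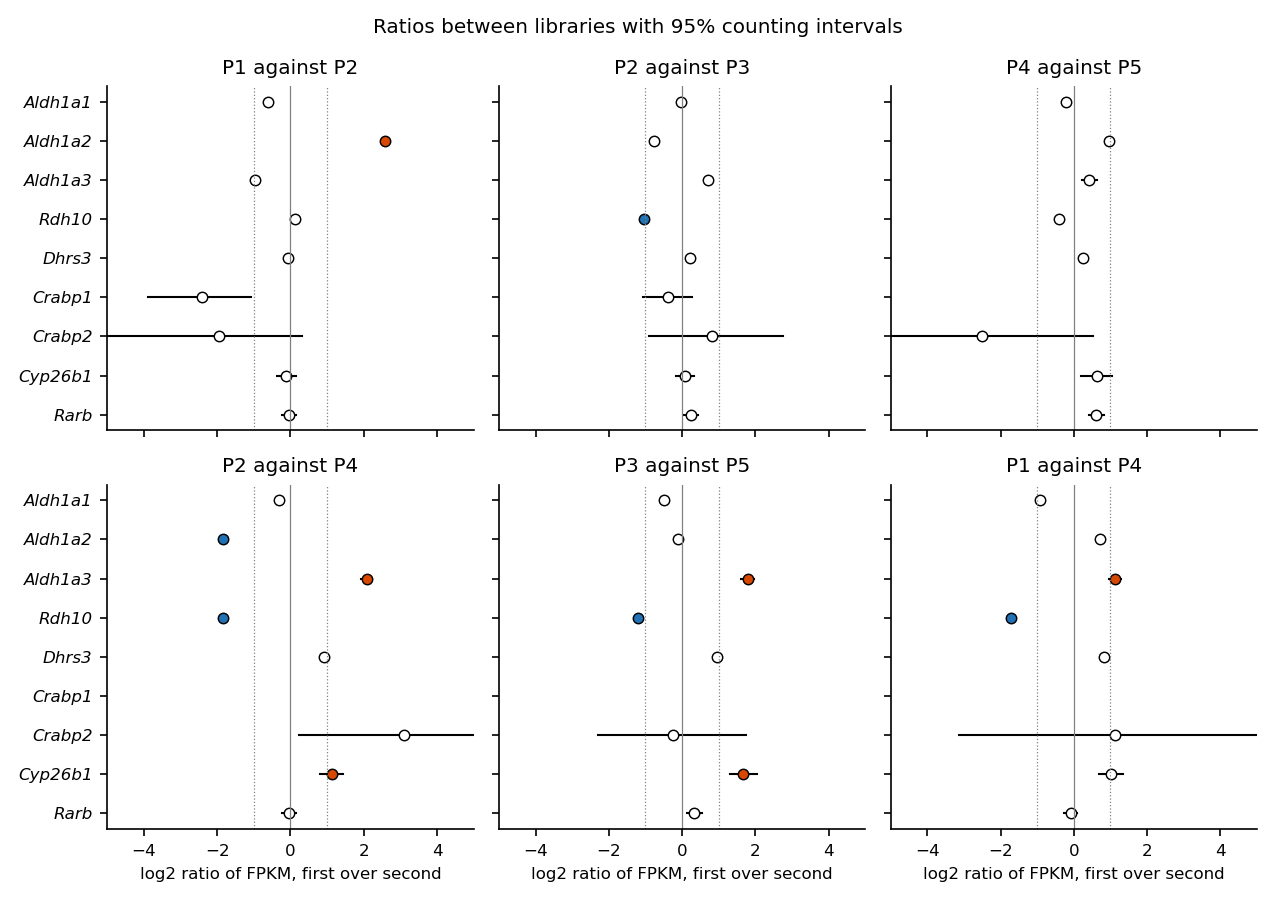
Log2 ratio of FPKM (x axis, first population over second, no pseudocount) for each gene in 6 comparisons, with 95% counting intervals; dotted lines mark 2 times. Filled points passed 2 times on the log2(FPKM + 0.1) scale with at least 1 FPKM (orange higher, blue lower), ratios with a population listed at 0 (*Crabp1*) are left out, and some intervals of *Crabp2* run past the axis.

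P6, the CD140a low fraction, was compared with each of the other 5. No member of 8 was at least 2 times higher in P6 than in all of them, against 6.25% of all genes, with *Rarb* at 1.95 times and *Aldh1a1* at 1.42 times the next population. With a common sum of FPKM *Rarb* passed. *Aldh1a3* alone was lower in P6 than in each other population by at least 2 times, 1 of 8 against 3.36%, and P5, the next lowest, was 10.5 times P6 (6.61 to 16.8). Against the mean of the other 5, *Aldh1a3* was at -4.71, *Cyp26b1* at -1.55, *Rdh10* at -0.94, *Aldh1a1* at 0.93 and *Rarb* at 1.12.

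Other genes of the pathway were counted from lists by role. For uptake, binding and storage of retinol, 11 genes had values. *Stra6*, the membrane receptor for retinol-binding protein, was at 0.452, 0.435 and 0.719 FPKM in P1, P2 and P3, 4.23 and 2.96 in P4 and P5, and 22.7 in P6. *Lrp2*, an endocytic receptor for retinol-binding protein, was at or below 0.923 FPKM in P1 to P3, at 11.2 in P4, 10.9 in P5 and 40.8 in P6. These receptors and *Ces1d*, which encodes a carboxylesterase, at 110.4 FPKM in P6, made up the 3 of 7 tested that were past 2 times upward in P6 (6.25% of all genes), and the same 3 were lower in P2 than in P4 (7.63% of all genes) and lower in P3 than in P5 (6.29%). In the latter pairs *Stra6* and *Lrp2* entered only through P4 or P5, where they were high, and *Ces1d* alone reached 1 FPKM on both sides. *Rbp4*, the secreted carrier of retinol, went the other way, from 49.4, 46.0 and 30.2 FPKM in P1, P2 and P3 to 13.9 and 6.51 in P4 and P5 and 6.23 in P6. *Lrat*, which makes the storage ester, was listed at 0 in P1, P4 and P6 and did not exceed 0.0671 FPKM elsewhere.

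Among 20 oxidoreductases with values, *Adh1*, an alcohol dehydrogenase that can oxidize retinol, was the most abundant in the CD105+ populations and *Rdh10* in P4 and P5, while *Akr1b8* was in P6. *Adh1* was at 169, 138 and 104 FPKM in P1, P2 and P3, 65.0 and 25.9 in P4 and P5, and 1.67 in P6. *Rdh10* and *Adh1* thus had opposite orders over P2 to P5. *Dhrs9*, another short-chain dehydrogenase, was at or below 1.001 FPKM in P1 to P3, at 9.11 and 8.75 in P4 and P5 and at 29.4 in P6. *Akr1b8*, a reductase, was at 50.7 FPKM in P6 and at or below 18.9 elsewhere. In P6 3 of 14 tested were past 2 times upward against 6.25% of all genes, *Akr1b8*, *Dhrs9* and *Rdh9*, the last of which entered through P6 alone, and *Adh1* was downward, 1 of 14 against 3.36%. *Akr1b3*, another reductase, was highest in P1, at 18.6 FPKM. Summed over the list the populations were closer, between 261 FPKM in P6 and 360.4 in P1.

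The third binding protein counted, *Fabp5*, which can carry retinoic acid as well as fatty acids, had far more transcript than the CRABP genes. It was at 10.3, 9.37 and 28.0 FPKM in P1, P2 and P3, 135 and 154 in P4 and P5, and 61.4 in P6. Of the other hydroxylases, *Cyp26a1* was listed at 0 in P1 and P3 and did not exceed 0.154 FPKM in P2, P4 and P5. It was at 0.616 FPKM in P6, beside 0.925 for *Cyp26b1* there. *Cyp26c1* was at 0.0119 FPKM in P5 and was listed at 0 in all other populations. Among the receptors *Rarg* was the most abundant in every library, from 25.0 FPKM in P3 to 44.4 in P6, and *Rara* had 8.30 FPKM in P6 against 16.6 to 20.1 elsewhere. *Rxrg*, at 0.417 FPKM in P2 and 1.37 in P3, was the 1 receptor of 6 past 2 times in any comparison (lower in P2 than in P3, against 2.56% of all genes), and it entered through P3 alone.

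**Figure D4:**
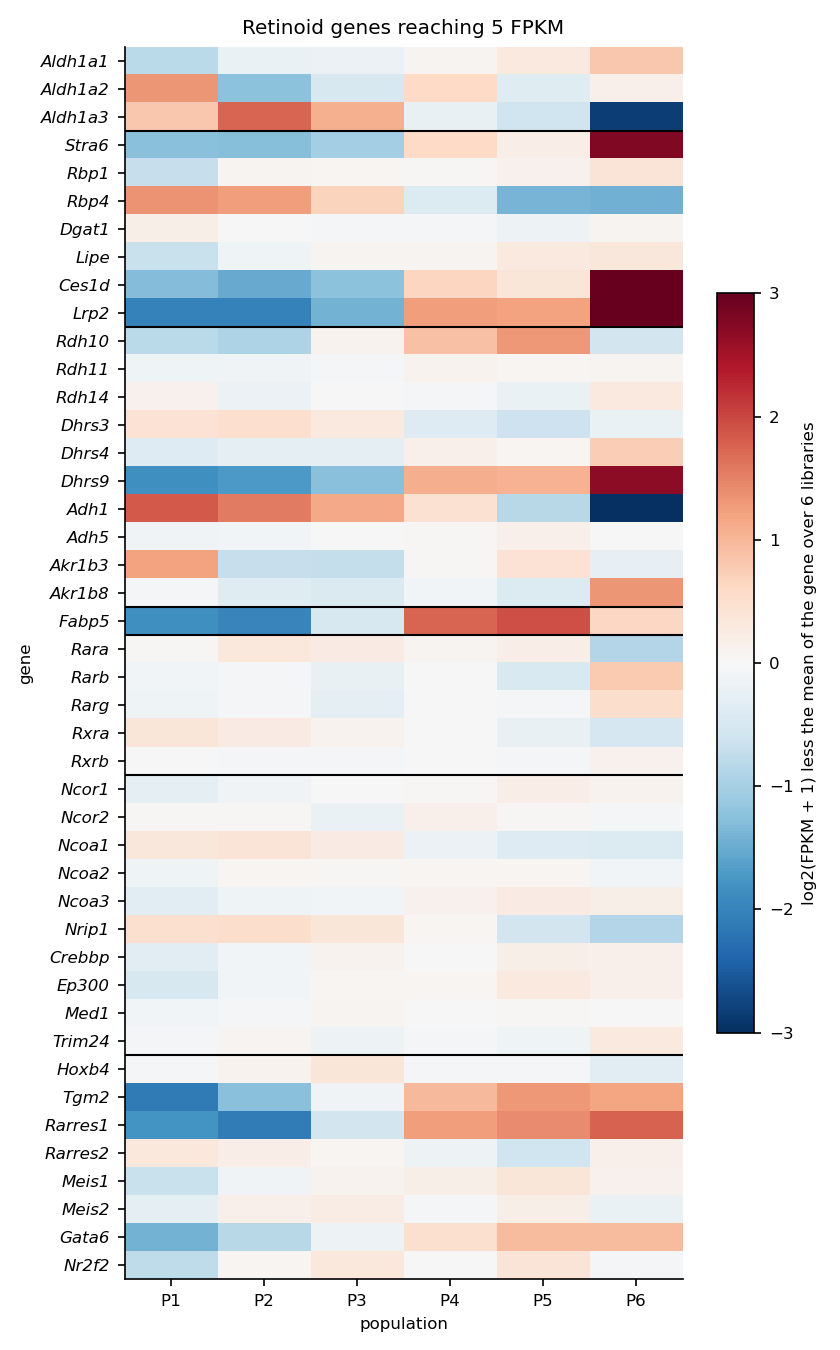
Heat map of retinoid genes that reached 5 FPKM in at least 1 population (rows, grouped by role and divided by black lines) in P1 to P6 (columns). Colour is log2(FPKM + 1) less the gene's mean over the 6 libraries, cut at 3 and -3, and the rows of *Stra6*, *Ces1d*, *Lrp2* and *Dhrs9* are highest in P6.

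A list of 24 genes reported to respond to retinoic acid included *Rarb*, *Cyp26b1*, *Dhrs3* and *Crabp2*. Between P1 and P2, where *Aldh1a2* differed most, 0 of 17 tested were past 2 times in either direction, where only 0.957% of all genes were higher and 4.23% lower, and their median was -0.19 against -0.05 for all genes. Of 18 tested between P2 and P4, *Cyp26b1* was higher and 4 were lower in P2, *Stra6*, *Tgm2*, *Rarres1* and *Gata6*, against 4.90% and 7.63% of all genes, with *Stra6* below 1 FPKM in P2 and so tested through P4 alone. The same 5 genes differed in the same direction between P3 and P5, against 7.33% higher and 6.29% lower, with *Stra6* tested through P5 alone. Between P1 and P4, *Stra6* (through P4 alone), *Tgm2*, *Rarres1* and *Gata6* were lower in P1, 4 of 17 against 10.1%, and 0 were higher (4.13%). Between P2 and P3, *Tgm2* and *Rarres1* were lower in P2, 2 of 17 against 2.56%, and 0 were higher (1.09%). Between P4 and P5, 0 of 18 passed in either direction. In P6, *Stra6* was upward, 1 of 18 against 6.25%, and *Cd38* downward, 1 of 18 against 3.36%. *Tgm2*, which encodes a transglutaminase, was at 32.5, 60.2 and 134 FPKM in P1, P2 and P3, 285 and 356 in P4 and P5, and 328 in P6. *Gata6*, a transcription factor, was at 14.9, 22.6 and 37.1 FPKM in P1, P2 and P3, 58.3 and 80.3 in P4 and P5, and 80.9 in P6. *Rarres1* ran from 3.36 FPKM in P2 to 63.0 in P6. The members on the list did not move as a block with these genes. *Dhrs3* and *Cyp26b1* were higher in each of P1, P2 and P3 than in P4 and P5. *Tgm2*, *Gata6*, *Rarres1*, *Stra6* and *Meis1* were lower. *Nrip1* and *Rarres2*, the most abundant gene on the list, were higher, as *Dhrs3* was. *Rarres2* was at 816, 752 and 681 FPKM in P1, P2 and P3, and at 581 and 427 in P4 and P5. The median of the list was 0.09 in P2 against P4 (-0.08 for all genes) and 0.21 in P3 against P5 (-0.09). In P1 against P4 it was -0.09 (-0.13 for all genes).

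Markers of other cell types differed between the same populations. The 11 mesothelial markers with values summed to 73.1, 95.9 and 148 FPKM in P1, P2 and P3, 935 and 757 in P4 and P5, and 3023 in P6, with *Wt1* the most abundant in P1, P2 and P3 and *Upk3b* in P4, P5 and P6, where it reached 1139.8 FPKM. Of 10 tested, 9 were past 2 times upward in P6 against all others (6.25% of all genes), *Msln* ran from 0.127 FPKM in P1 to 171 in P6, and *Cdh1* was listed at 0 in P1 and P3 and did not exceed 0.0729 elsewhere. *Aldh1a1*, *Rdh10*, *Stra6* and *Lrp2* were higher in P4 and P5, which had more mesothelial transcripts than P1 to P3. *Aldh1a3*, *Cyp26b1* and *Dhrs3* were lower there, and *Aldh1a1* overlapped under division by *Gapdh*. Of the 8 members tested, 2 were higher in P4 and P5, against 37.9% of all genes. Lower there were 4, counting *Crabp1* with its listed zeros, against 18.0%. *Aldh1a2* overlapped, as did *Rarb* except under division by *Gapdh*. P6, with the most mesothelial transcript, did not continue these directions for *Rdh10*, at 40.8 FPKM below P3, P4 and P5. Nor did it for *Dhrs3*, at 30.9 FPKM above P4 and P5. The 14 pancreatic acinar genes summed to 5.05, 268 and 28.5 FPKM in P1, P2 and P3, 1449 and 169 in P4 and P5, and 2084 in P6, led by *Amy2a5* in each but P1, where *Cela1* led. They were therefore higher at intermediate than at low ALDH activity in both CD105 classes, as *Aldh1a2* was in P4 against P5 but not in P2 against P3.

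The 10 endothelial markers summed to 1.85, 2.35 and 3.90 FPKM in P1, P2 and P3, 18.9 and 12.1 in P4 and P5, and 112 in P6. Nearly all of the sum in P6 was *Esam* at 62.0 FPKM and *Kdr* at 46.9, while *Pecam1* did not exceed 0.992, *Cdh5* did not exceed 0.343, and *Cldn5* in P4 and *Erg* in P6 were listed at 0. The 9 leukocyte markers summed to 20.2, 31.6 and 29.1 FPKM in P1, P2 and P3, 16.9 and 12.8 in P4 and P5, and 48.4 in P6, led by *Lyz2*, and *Cd3e* was listed at 0 in P1, P4 and P5. The 10 adipocyte markers summed to 604, 519 and 585 FPKM in P1, P2 and P3, 406 and 436 in P4 and P5, and 369 in P6, led by *Lpl* in P1 to P3 and *Fabp4* in P4 to P6, and *Lep* was listed at 0 in all but P3. That sum hides opposite directions in P6, where 5 of 9 tested were past 2 times upward against 6.25% of all genes (*Adipoq*, *Plin1*, *Cfd*, *Retn* and *Cidec*) and *Lpl* alone was downward, 1 of 9 against 3.36%. All of these upward genes but *Plin1* were below 1 FPKM outside P6, with *Retn* listed at 0 in P2 and P5, and so were tested only for their level in P6. *Cfd* was at 114 FPKM there and at or below 0.337 elsewhere, and *Adipoq* at 14.7 and at or below 0.785. The 8 mural markers summed to 66.5, 150.1 and 255 FPKM in P1, P2 and P3, 186 and 301 in P4 and P5, and 114 in P6, led by *Des*. Like *Rdh10*, this sum was higher at low than at intermediate activity. *Cspg4* went the other way in both CD105 classes, as did *Rgs5* and *Notch3* from P4 to P5, while the other markers followed the sum. In P6, 3 of 7 tested were past 2 times upward against 6.25% of all genes, *Acta2*, *Cspg4* and *Mcam*. There *Notch3* was downward, 1 of 7 against 3.36%. *Cspg4* and *Mcam* were below 1 FPKM outside P6 and so were tested only for their level there. The part of any of these cell types in the levels of the 9 genes was not tested.

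**Figure D5:**
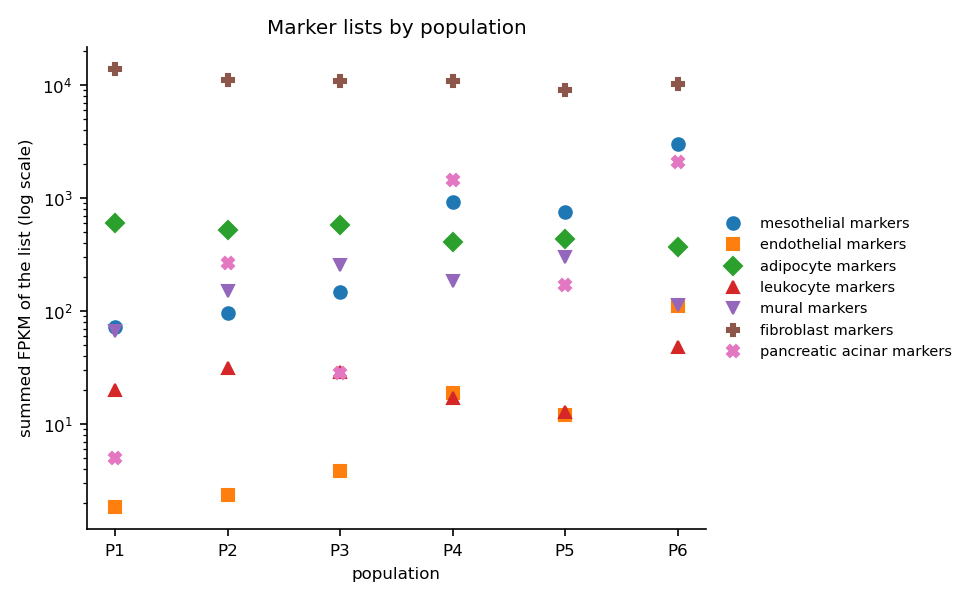
Summed FPKM (y axis, log scale) of 7 marker lists in P1 to P6 (x axis), 1 library each. Mesothelial markers are highest in P6 (3023 FPKM) and lowest in P1 (73.1 FPKM), and pancreatic acinar genes are higher in P2, P4 and P6 than in P1, P3 and P5.

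For the 6 members that reached 5 FPKM, the genes with the most similar profile were taken from 2889 genes that reached 5 FPKM and varied by at least 1 on the scale log2(FPKM + 1), by Pearson r over the 6 populations. With so few points many genes come close, so these r values are descriptions only. Nearest to *Aldh1a1* were *Pdp1* (r = 0.998), *Nxn* (0.997) and *Mid1ip1* (0.996). *Aldh1a2* had the least similar neighbours, *4833403I15Rik* (0.928), *Lmo1* (0.921) and *Doc2b* (0.869), none of which matched the level of *Aldh1a2*: *Lmo1*, for example, was at 6.97 FPKM in P1 and 2.57 in P2. Each of the other members had closer neighbours. *Aldh1a3* was nearest to *Olfml3* (0.998), *Bicc1* (0.995) and the complement gene *C7* (0.995), and *Rdh10* to the cyclin gene *Ccnd1* (0.995), *Efhd2* (0.992) and *Plcl1* (0.991). *Dhrs3* was nearest to *C1qtnf2* (0.993), *Egr2* (0.987) and *Cdkn1c* (0.986), and *Rarb* to *Suox* (0.991), *Poc1b* (0.990) and *Efna5* (0.984).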

How the data were processed

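RNA of 6 sorted populations, 1 library each, was sequenced as single-end reads of 76 bases. The authors deposited FPKM values; the submitters' processing notes name TopHat2 2.0.7, Cufflinks 2.1.1 and mm10, and the annotation was not given in the sources used here. Rows that repeated a symbol (495 in each library) were summed, and no further scaling was applied. A gene differed between populations when log2(FPKM + 0.1) differed by at least 1 and the higher population reached 1 FPKM. For P6 this had to hold against each of the other populations. Depth was estimated from the spacing of low values in 3316 genes with 1 transcript of at least 800 nt (GENCODE M21), with a fragment of 200 nt assumed; 53.1% to 57.2% of values up to 10 reads lay within 0.05 of a whole number. Counting intervals (95%) used these depths and the shortest coding transcript. Genes were named when they were members, reached 5 FPKM on a retinoid list, led a marker list, belonged to the sort gates or ranked among the 3 nearest profiles; other list genes were chosen after their values were seen. The members and lists were chosen with earlier results of these data known. Alternatives were 4 scalings (common sum, median of ratios, *Gapdh*, quantile), pseudocounts of 0.01 and 1, minimum FPKM of 0 and 5, folds of 1.5 and 3 and, chosen after seeing the data, genes listed at 0 in a compared population left out. The tools were Python 3.11.15 with scipy 1.17.1, pandas 2.3.3, numpy 2.4.6 and, for plots, matplotlib 3.10.9, and the procedures were tested on simulated data.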

Additional observations from a re-analysis of the deposited data

Results flagged for a closer look

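The step from intermediate to low ALDH activity went in opposite directions in the CD105 classes for 2 members. For *Aldh1a2* the log2 ratio was -0.76 in CD105+ cells (P2 over P3, 78.8 and 134 FPKM) and 0.97 in CD105- cells (P4 over P5, 285 and 145 FPKM). For *Crabp2* it was 0.50 in CD105+ cells and -0.94 in CD105- cells, from levels of at most 0.209 FPKM and intervals that included a ratio of 1. Neither difference between the classes was tested, because each population had a library of its own and no replicate.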

How the results depend on the processing

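A paired analysis could not be made, since no population had a replicate to pair. The number of members past 2 times in P1 against P2 went from 1 to 2 under division by *Gapdh*, with *Crabp1* added downward, and to 3 with no minimum FPKM, with *Crabp1* and *Crabp2* added downward, or with a fold of 1.5. In P2 against P3 it went from 1 to 0 with the median of ratios, *Gapdh* or a fold of 3, and to 3 at 1.5. In P4 against P5 it went from 0 to 1 with the median of ratios or *Gapdh*, and to 2 at 1.5. In P2 against P4 it was 4 and ran from 3 (pseudocount of 1, minimum of 5 FPKM or a fold of 3) to 6 (*Gapdh* or no minimum). In P3 against P5 it went from 4 to 2 at a minimum of 5 FPKM and to 5 with the median of ratios or quantile normalization; with *Gapdh* it was 4, with *Dhrs3* gained and *Rdh10* lost, and without genes listed at 0, an alternative chosen after seeing the data, it was 3. In P1 against P4 it went from 2 to 5 with *Gapdh*, 3 with the median of ratios, quantile normalization, a pseudocount of 0.01 or no minimum, 6 at 1.5 and 1 at a fold of 3. For P6 it went from 1 to 2 with a common sum or a fold of 1.5. Members highest in P1 went from 1 to 2 with the median of ratios and with quantile normalization. The counts at other folds and minimums follow from those thresholds; for the scalings, the cause was not tested. Of the log2 ratios of single members recomputed, 263 stayed within counting error (or within 0.05 where there was no interval) and 115 did not. Among all of these ratios, 17 changed sign, none of them past 2 times. Division by *Gapdh*, which was at 214 FPKM in P1, 302 in P4 and 326 in P5, shifted the median of all genes by 0.47 in P2 against P4, 0.54 in P3 against P5, 0.49 in P1 against P4, 0.11 in P4 against P5 and -0.11 for P6. The median of ratios shifted it by 0.16 and quantile normalization by 0.21 in P1 against P4, quantile normalization by 0.12 in P2 against P4, and these by -0.12 and -0.11 for P6. Depth limits the values of *Crabp1* and *Crabp2*, and P6 had the fewest reads.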
